A study of Mus musculus with 6 samples.

Results

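The genes described here are 38 genes of sperm and spermatids, read in the epididymal white adipose tissue of male mice. They were fixed as a list of gene symbols, and every annotated transcript of each symbol was counted. Of the 38, 37 had at least 1 read, among 23492 genes with reads in the series. By the stage each gene is best known for, 28 form a late spermatid class, 8 a meiotic class (active from meiosis or earlier) and 2 (Odf2 and Spata18) are also transcribed in body cells. The split is approximate, and the stage at which each gene is first transcribed was not tested here. Epididymal fat of 6 C57BL/6N males of 20 weeks was sequenced as full-length direct cDNA on a Nanopore device, without PCR. The mice were wild type. All were kept at 22 to 24 °C, and the 3 cold mice (cold 7, cold 12 and cold 16) then spent 24 h alone at 4 °C before dissection. The 3 control mice (ctrl 5, ctrl 6 and ctrl 10) are labelled only as ctrl, and whether they too were housed alone is not stated. Each library is 1 mouse and bears its mouse number.

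Spermatogenesis takes place in the testis. After meiosis, round spermatids elongate, their histones are replaced by transition proteins and then by protamines, and an acrosome and a flagellum are built. Transcription largely stops during this compaction, and many messages made earlier are stored and translated late. Sperm then leave for the epididymis, the coiled duct in which they mature and are stored, and to which this fat pad is attached. Sperm are known to carry remnants of spermatid RNA. The source of the reads described here was not tested.

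The libraries held 726283 to 1341592 reads. A single read was worth 0.747 to 1.38 CPM (the usual scaling of counts to a common library total, here of reads assigned to genes), and 0 reads in a library allowed up to 3 reads, or 2.24 to 4.14 CPM. Intervals and such floors cover counting error only. The labelled tissue was borne out by its markers: all 10 adipocyte markers checked (Adipoq, Plin1, Fabp4 and others) had reads in each library, and their summed level was 48258 to 53049 CPM. Over all genes, 64 of 9772 tested passed an adjusted p of 0.05 (edgeR quasi-likelihood test with Benjamini-Hochberg adjustment), which is 0.655%, and 53 of them were higher in the cold.

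Spermatid reads were concentrated in 2 of the 3 cold libraries. The 28 late spermatid genes together had 15, 49 and 22 reads in ctrl 5, ctrl 6 and ctrl 10. They had 164 in cold 7, 231 in cold 12 and 21 in cold 16. The summed level was 226 CPM in cold 7 (95% Poisson interval 193 to 264) and 194 CPM in cold 12 (170 to 220). In cold 16 it was 26.8 CPM (16.6 to 41.0), between ctrl 10 at 19.4 CPM and ctrl 6 at 36.6 CPM, and ctrl 5 had 16.0 CPM. The group means were 24.0 ± 11.0 CPM in controls and 149 ± 107 CPM in the cold (SD, n = 3). The groups overlapped because of cold 16. Without cold 7 and cold 12, a comparison added after seeing the data, the log2 ratio of cold to control was 0.16, against 2.63 with all mice.

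**Figure D1:**
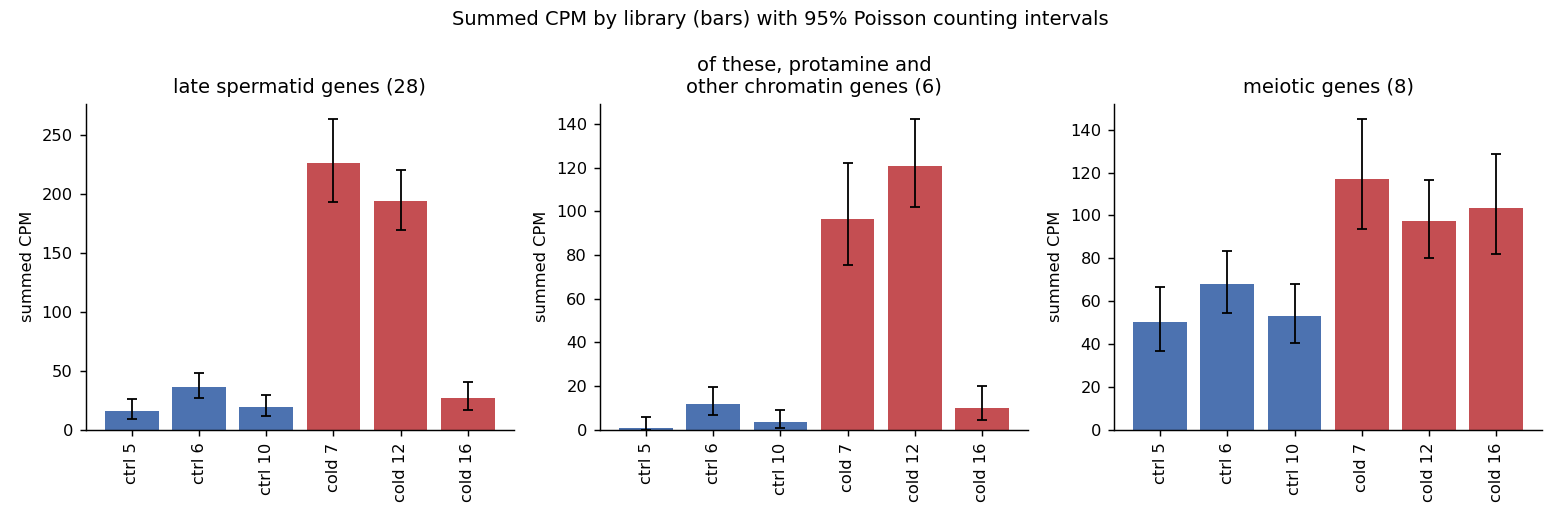
Summed level (CPM, linear axis) in each library of the 28 late spermatid genes, of the 6 chromatin genes among them and of the 8 meiotic genes. Bars are single libraries (blue control, red cold) and error bars are 95% Poisson counting intervals. Late spermatid reads stood at 226 and 194 CPM in cold 7 and cold 12 and at no more than 36.6 CPM in the other 4 libraries.

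More of the list was seen in the same libraries. At least 1 read was found for 33 of the 38 genes in cold 7, for 33 in cold 12 and for 15 in cold 16. The controls showed 12 (ctrl 5), 19 (ctrl 6) and 17 (ctrl 10). Cold 7 was the smallest library. After random thinning of each library to its 725273 gene reads the numbers were 33 in cold 7, 31 in cold 12, 14 in cold 16 and 12, 15 and 14 in ctrl 5, ctrl 6 and ctrl 10. The level was highest in cold 7 or cold 12 for 33 of the 37 genes with reads, where 34.7% of all genes with reads had their highest level in one of these libraries (36.1% of genes with 1 to 150 reads). By class the highest level was in cold 7 or cold 12 for 25 of the 27 late spermatid genes with reads (not Acr, highest in ctrl 6, or Acrv1, highest in cold 16), 6 of the 8 meiotic genes and both others. No read in any control was found for 14 of the 37, against 12.8% of all genes with reads. These 14 had at most 16 reads each. The share over all genes takes in genes with many reads, so low counts can widen the contrast. No gene of the list was lower in every cold library than in every control library. A gene without reads in any one control library could not be, and the share over all genes was not computed. Reads came from both deposited files of the mice in 33 of the 37 genes.

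Only 3 of the 38 genes had enough reads in enough libraries to pass the filter on low counts and be tested over all genes: Sycp3, Odf2 and Insl6. None of these 3 passed (edgeR adjusted p 0.684, 0.785 and 0.840; 0 had an unadjusted p under 0.05), where 0.542% of all genes tested passed as higher in the cold. The other 34 genes with reads were not tested in that fit, and a low read number there is no sign that they did not differ. With no filter on low counts, 9 of 37 passed, all higher in the cold, where 1.3% of all genes did: Prm1, Prm2, Tnp1, Tnp2, Smcp, Oaz3, Crisp2, Meig1 and Ldhc (edgeR adjusted p up to 0.00581). DESeq2 gave an adjusted p to 20 of the 38. By it Prm2 and Meig1 passed (DESeq2 adjusted p = 0.00158 and 0.0170), where 0.388% of all genes passed as higher. DESeq2 also filters, on the mean count, which these genes reach mainly through cold 7 and cold 12. Their count is therefore not to be read against that share. Without cold 16, 6 of 11 tested passed (Prm1, Prm2, Tnp1, Smcp, Meig1 and Ldhc; edgeR adjusted p up to 0.00062), where 0.585% of all genes passed as higher. These 6 entered that fit because cold 7 and cold 12, where they are high, then formed the whole cold group, so their count is not to be read against that share. Without cold 7 or without cold 12, 0 of 3 tested passed. Cold 16 was at or near the controls for most of these 9 genes, as the values of each library below show. By an exact two-sided permutation test of CPM in single genes, the smallest p that 3 against 3 mice allow is 0.1. It was reached by the genes in which every cold library lay above every control: Prm2, Tnp2, Oaz3, Crisp2 and Meig1. These are 5 of 37, and the same held for 5.23% of all genes with reads (5.03% of those with 1 to 150 reads).

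The chromatin genes held 243 of the 502 late reads, more than any other role. Prm1 (ENSMUSG00000022501.6, GRCm38 chromosome 16, 10796326 to 10805839) encodes protamine 1, which packs sperm DNA. It had 1, 6 and 1 reads in ctrl 5, ctrl 6 and ctrl 10 and 19, 51 and 1 in cold 7, cold 12 and cold 16. Cold 7 and cold 12 were far above the other libraries and cold 16 was level with ctrl 5 and ctrl 10. Over the groups this was 8 against 71 reads, an 11.2-fold higher level in the cold (95% interval from counting error 5.39 to 27.0), and 2.14 ± 2.03 against 23.4 ± 20.9 CPM (SD, n = 3; exact permutation p = 0.2).

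Prm2, protamine 2, had the most reads of the late class. It had 0, 5 and 2 reads in ctrl 5, ctrl 6 and ctrl 10 and 27, 45 and 5 in cold 7, cold 12 and cold 16. Cold 16 was just above ctrl 6, since the same 5 reads came from a smaller library (6.39 against 3.73 CPM). The levels were 1.83 ± 1.87 and 27.1 ± 18.0 CPM (SD, n = 3; exact permutation p = 0.1). The ratio by 7 and 77 reads was 13.9, with a counting interval of 6.43 to 35.7.

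Tnp1, the transition protein that precedes the protamines, had 0, 4 and 1 reads in ctrl 5, ctrl 6 and ctrl 10 and 16, 29 and 1 in cold 7, cold 12 and cold 16. Its ratio by 5 and 46 reads was 11.6 (4.63 to 37.5), and an antisense gene with 9 reads overlaps it. Tnp2, the second transition protein, had 1 read in the controls, in ctrl 6, and 4, 13 and 1 in the cold libraries. The ratio of these few reads was 22.7, and its interval of 3.59 to 947 leaves the size unknown. Prm3, the third gene of the protamine cluster, and Hils1, a linker histone-like protein of spermatids, had 0 reads in all controls and in cold 16. Prm3 had 2 reads in cold 7 and 4 in cold 12, and Hils1 had 2 in each. Prm1, Prm2, Prm3 and Tnp2 lie on the minus strand within 17904 bp of chromosome 16 (10787936 to 10805839), while Tnp1 is on chromosome 1.

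The promoter windows of 4 of these genes are printed because the genes shared the pattern over libraries. They are Prm1, Prm2 and Tnp1, and Smcp, a tail gene described next. Each window runs from 250 bases before to 50 bases after the start that RefSeq gives on GRCm38.p6, and is written 5′ to 3′ on the gene's strand (minus for all 4). Capitals mark every match to TGANNTCA, a relaxed form of the cyclic AMP response element TGACGTCA that the spermatid activator CREM is known to bind.
Prm1 (chr16:10796774-10797073): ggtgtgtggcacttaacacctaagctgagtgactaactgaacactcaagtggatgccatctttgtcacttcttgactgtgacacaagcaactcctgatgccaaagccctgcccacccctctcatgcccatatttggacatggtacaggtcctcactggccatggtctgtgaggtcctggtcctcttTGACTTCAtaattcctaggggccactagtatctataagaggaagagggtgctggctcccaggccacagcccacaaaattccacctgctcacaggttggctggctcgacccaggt
Prm2 (chr16:10792056-10792355): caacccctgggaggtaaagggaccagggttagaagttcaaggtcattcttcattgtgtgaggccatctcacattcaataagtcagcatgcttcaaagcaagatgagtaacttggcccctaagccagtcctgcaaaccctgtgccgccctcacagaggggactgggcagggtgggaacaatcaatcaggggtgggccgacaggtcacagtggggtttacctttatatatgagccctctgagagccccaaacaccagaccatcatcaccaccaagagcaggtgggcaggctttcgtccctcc
Tnp1 (chr1:73015850-73016149): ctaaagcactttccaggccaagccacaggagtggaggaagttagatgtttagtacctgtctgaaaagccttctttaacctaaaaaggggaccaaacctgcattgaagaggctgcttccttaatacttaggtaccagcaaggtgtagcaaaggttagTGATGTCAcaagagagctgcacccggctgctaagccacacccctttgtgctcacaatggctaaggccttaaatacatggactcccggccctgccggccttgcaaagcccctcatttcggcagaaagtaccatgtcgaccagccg
Smcp (chr3:92589024-92589323): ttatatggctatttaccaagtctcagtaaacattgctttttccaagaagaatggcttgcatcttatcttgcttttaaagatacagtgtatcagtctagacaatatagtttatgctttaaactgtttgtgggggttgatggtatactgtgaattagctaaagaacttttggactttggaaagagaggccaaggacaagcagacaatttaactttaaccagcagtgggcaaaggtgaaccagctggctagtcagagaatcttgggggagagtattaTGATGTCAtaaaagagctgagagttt

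The RefSeq start is that of Prm2's counted GENCODE transcript and lies 10 bases downstream of that of Tnp1. In Prm1 it lies 63 bases downstream of the start of the transcript with 61 reads, and 9016 bases downstream of that with 18, which sets the end of the gene span given above. In Smcp it lies 76 bases upstream of the start of the transcript with 29 of its 36 reads. The match was TGACTTCA in Prm1, with its first base 64 bases before the start, and TGATGTCA in Tnp1, 94 bases before the start. Smcp held TGATGTCA from base 25 after the RefSeq start, which is before the GENCODE start. The Prm2 window held no match, which says only that these letters are not in it. The relaxed form was chosen after the windows of Prm1, Tnp1 and Smcp had been read. It reads the same on both strands and includes every TGACGTCA. In the table of promoters, 33 of the 38 genes were found, with 43 windows. TGANNTCA was in 15 of the 27 windows of late spermatid genes (55.6%) and in 2 of the 11 of meiotic genes, against 4637 of all 32851 windows (14.1%). The exact TGACGTCA was in 1 of the 27, that of Izumo1, and in 1.79% of all windows. In a separate list of 56 other spermatid genes, 25 of 56 windows held TGANNTCA (44.6%), and in 29 windows of other meiotic genes 6 did (20.7%). Several windows can belong to 1 gene, and a match is not a shown binding site.

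Genes of the flagellum and its sheath followed the same libraries at lower counts. Smcp, a cysteine-rich protein of the mitochondrial sheath of the sperm tail, had 1 read in the controls, in ctrl 6, and 13, 22 and 0 in cold 7, cold 12 and cold 16. Cold 16, with 0 reads, could not be told from the controls. The levels were 0.25 ± 0.43 and 12.1 ± 10.5 CPM (SD, n = 3; exact permutation p = 0.4).

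Odf1, a main protein of the outer dense fibres, had 5 reads in cold 7, 4 in cold 12 and 0 elsewhere. Pooled over the cold group this was 3.33 CPM (95% Poisson interval 1.52 to 6.33), against 0 reads in the controls. Gapdhs, the sperm form of glyceraldehyde phosphate dehydrogenase, which is anchored in the fibrous sheath, had 0, 2 and 3 reads in ctrl 5, ctrl 6 and ctrl 10 and 7, 6 and 2 in cold 7, cold 12 and cold 16. Its ratio was 3.79 (1.31 to 13.3), with cold 16 and ctrl 10 at about the same level. It lies opposite Tmem147os (42 reads), and 7 of its 20 reads were on a transcript marked for nonsense-mediated decay. Of the sheath scaffolds, Akap4 had 1 read in cold 7 and 2 in cold 12, and Akap3 had none in any library. Ropn1, a binding partner of these scaffolds, had 2 reads and Spem1, needed for shaping the sperm head and neck, 1 read, all in cold 7. Cabs1, a calcium-binding protein of elongating spermatids, had 2 reads in each of cold 7 and cold 12.

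The acrosome and fertilization genes fell into separate patterns. Crisp2, a cysteine-rich secretory protein of the acrosome and tail, had 0 reads in all controls and 8, 7 and 1 in cold 7, cold 12 and cold 16. Pooled over the cold group this was 5.92 CPM (95% Poisson interval 3.39 to 9.62), against 0 reads in the controls. Fabp9, a fatty acid-binding protein of the layer between acrosome and nucleus, had 0, 3 and 1 reads in ctrl 5, ctrl 6 and ctrl 10 and 14, 4 and 0 in cold 7, cold 12 and cold 16. Only cold 7 stood apart for it, and cold 12, at 3.35 CPM, was close to ctrl 6 at 2.24 CPM.

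The acrosome genes Spaca1, Acr and Zpbp had reads in all controls, and their groups overlapped. Their reads are too few to show an even spread. Spaca1 and Zpbp were highest in cold 7 (12.4 and 4.14 CPM) and Acr in ctrl 6 (5.23 CPM). Spaca1, a membrane protein of the acrosome, had 5, 12 and 4 reads in ctrl 5, ctrl 6 and ctrl 10 and 9, 8 and 4 in cold 7, cold 12 and cold 16 (5.94 ± 2.77 and 8.08 ± 3.84 CPM, SD, n = 3; exact permutation p = 0.6). Acr, the acrosomal protease acrosin, had 3, 7 and 2 reads in the controls and 2, 4 and 0 in the cold. Zpbp, which binds the egg coat, had 2, 3 and 4 in the controls and 3, 3 and 0 in the cold. These 3 genes gave 10 of the 15 late reads of ctrl 5 and 22 of the 49 of ctrl 6. Without them, a choice made after their values were seen, the remaining 25 late genes had 5, 27 and 12 reads in ctrl 5, ctrl 6 and ctrl 10 and 150, 216 and 17 in cold 7, cold 12 and cold 16. Acrv1 had 5 reads over all libraries, Izumo1, the sperm protein of egg fusion, 4, and Zpbp2 3, the last in cold 7 and cold 12 alone. Izumo1 overlaps Rasip1 (237 reads) on the same strand, so its reads are uncertain.

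**Figure D2:**
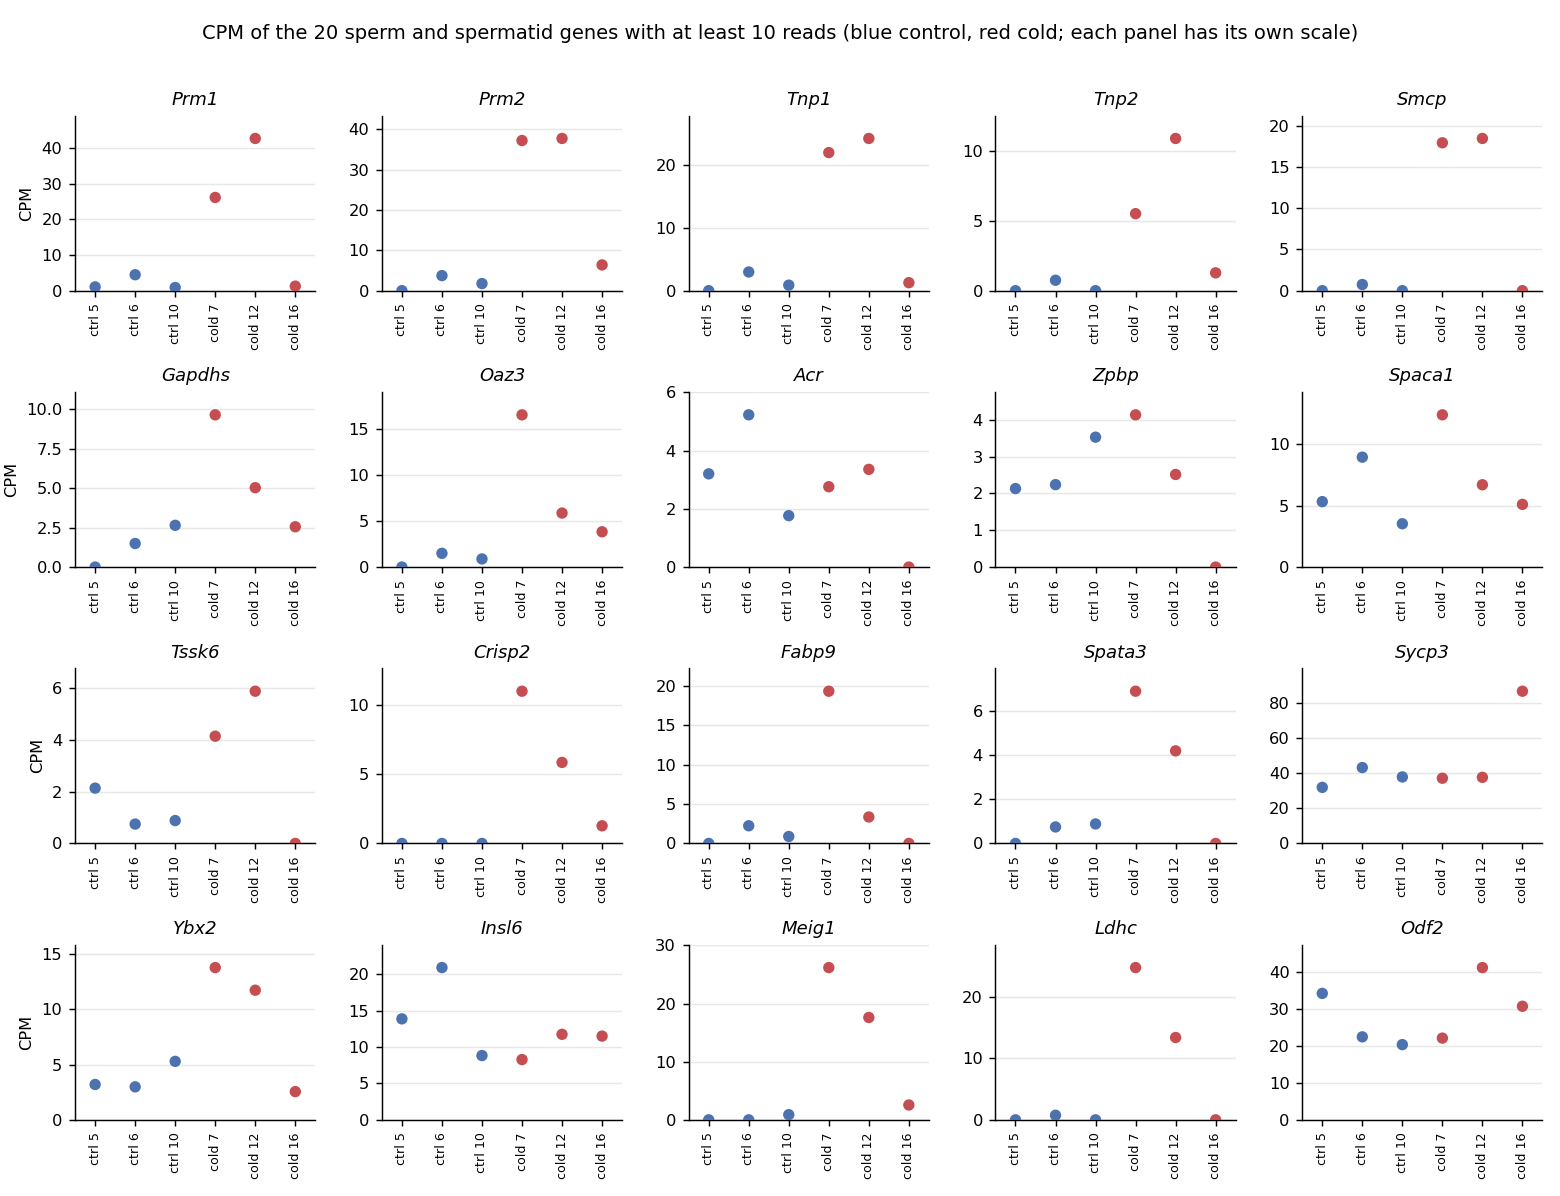
Level (CPM, linear axis from 0, a scale of its own in each panel) of each of the 20 genes with at least 10 reads over the 6 libraries. A point is 1 library (blue control, red cold). Cold 7 and cold 12 stand above the rest for Prm1, Prm2, Tnp1, Smcp, Meig1 and Ldhc, while Sycp3 is highest in cold 16 and Insl6 in ctrl 6.

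The remaining late genes had few reads. Oaz3, the antizyme of haploid germ cells that restrains polyamine synthesis, had 0, 2 and 1 reads in ctrl 5, ctrl 6 and ctrl 10 and 12, 7 and 3 in cold 7, cold 12 and cold 16, a ratio of 9.26 (2.78 to 48.3). It shares its locus with Mrpl9 (291 reads) and Tdrkh (62 reads) on the opposite strand, and 3 of its 25 reads were on a transcript with a retained intron. Of the testis-specific serine kinases, Tssk6 had 2, 1 and 1 reads in the controls and 3, 7 and 0 in the cold, Tssk2 3 reads and Tssk3 1. Tssk6 lies opposite Ndufa13, which had 2608 reads, so its few reads are uncertain. Spata3 had 0, 1 and 1 reads in the controls and 5, 5 and 0 in the cold. Hspa1l, an Hsp70 of spermatids with close relatives in body cells, had 1 read in ctrl 10 and 3 in cold 12, which are uncertain for that reason.

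Of the 8 meiotic genes 6 were highest in cold 7 or cold 12, as were 34.7% of all genes with reads. These were Meig1, Ldhc, Ybx2, Pgk2, Piwil1 and Ddx4. Ddx4 was highest in cold 7 only because its 1 read there came from the smallest library. Meig1, a gene named for meiosis whose protein is needed for building the flagellum, had 0, 0 and 1 reads in ctrl 5, ctrl 6 and ctrl 10 and 19, 21 and 2 in cold 7, cold 12 and cold 16 (0.29 ± 0.51 and 15.5 ± 12.0 CPM, SD, n = 3; exact permutation p = 0.1). Ldhc, the lactate dehydrogenase of germ cells, switched on in meiosis and kept in sperm, had 0, 1 and 0 reads in the controls and 18, 16 and 0 in the cold. Meig1 and Ldhc were nearly without reads outside cold 7 and cold 12. Pgk2, the germ cell phosphoglycerate kinase, had 4 reads, all in cold 12. Piwil1, which acts with piRNAs, had 4 in cold 7, 1 in cold 12 and none elsewhere, and Ddx4, the germ cell RNA helicase, had 1 each in ctrl 5, cold 7 and cold 12. Ybx2, which stores messages in spermatocytes and spermatids, had 3, 4 and 6 reads in the controls and 10, 14 and 2 in the cold. Its levels of 13.8 and 11.7 CPM in cold 7 and cold 12 were above the control range of 2.99 to 5.30 CPM, and cold 16 was below it at 2.55 CPM.

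The other meiotic genes, Sycp3 and Insl6, were not highest in cold 7 or cold 12. Sycp3, a core protein of the synaptonemal complex, had 30, 58 and 43 reads in ctrl 5, ctrl 6 and ctrl 10 and 27, 45 and 68 in cold 7, cold 12 and cold 16. It stood at 32.0 to 43.3 CPM in all libraries but cold 16, where it was at 86.9 CPM. The log2 fold change was 0.49 ± 0.27 (SE; edgeR adjusted p = 0.684). Its gene overlaps Chpt1 (7687 reads) on the opposite strand, and 57 of its 271 reads were on a transcript marked for nonsense-mediated decay. Insl6, a relaxin-like peptide of germ cells, had 13, 28 and 10 reads in the controls and 6, 14 and 9 in the cold, with overlapping groups.

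The meiotic class thus summed to 50.1, 67.9 and 53.0 CPM in ctrl 5, ctrl 6 and ctrl 10 and 117, 97.3 and 103 CPM in cold 7, cold 12 and cold 16 (57.0 ± 9.58 and 106 ± 10.2 CPM, SD, n = 3). All cold libraries were above all controls, but different genes supplied the reads. Sycp3 gave 68 of the 81 reads of cold 16. Without Sycp3 the class had 17, 33 and 17 reads in the controls and 58, 71 and 13 in cold 7, cold 12 and cold 16, and cold 16 lay among the controls (16.6 against 15.0 to 24.6 CPM). Without Meig1 and Ldhc as well, the other 5 genes stood at 29.0 CPM in cold 7, 28.5 in cold 12, 14.1 in cold 16 and 14.1 to 23.9 in the controls.

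With all 8 meiotic genes counted, late spermatid reads outnumbered meiotic ones in cold 7 and cold 12 and in no other library. They were 65.9% of the reads of both classes in cold 7 (exact 95% interval 59.6 to 71.7) and 66.6% in cold 12 (61.3 to 71.5). In cold 16 the share was 20.6% (13.2 to 29.7), and in the controls 24.2% (14.2 to 36.7), 35.0% (27.1 to 43.5) and 26.8% (17.6 to 37.8) in ctrl 5, ctrl 6 and ctrl 10. The intervals of cold 7 and cold 12 did not meet those of the other 4 libraries. This rests on Sycp3, whose reads are uncertain beside Chpt1. Without Sycp3 the late share was 73.9% in cold 7 (67.6 to 79.5) and 76.5% in cold 12 (71.3 to 81.2), but also 61.8% in cold 16 (43.6 to 77.8), 59.8% in ctrl 6 (48.3 to 70.4), 56.4% in ctrl 10 (39.6 to 72.2) and 46.9% in ctrl 5 (29.1 to 65.3). Late reads then outnumbered meiotic ones in all libraries but ctrl 5, and the intervals of cold 7 met those of all but ctrl 5.

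The makeup of the late reads also differed between cold 7 and cold 12. Chromatin genes gave 42.7% of them in cold 7 (70 of 164 reads, exact 95% interval 35.0 to 50.6) and 62.3% in cold 12 (144 of 231, 55.7 to 68.6). Acrosome and fertilization genes gave 25.0% in cold 7 and 12.1% in cold 12, and flagellum genes 18.9% and 15.6%. Fabp9 alone was 8.54% of the late reads of cold 7 (4.75 to 13.9) and 1.73% of those of cold 12 (0.474 to 4.37). Smcp took similar shares, 7.93% and 9.52%. These intervals compare 2 libraries by their reads, not 2 conditions.

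**Figure D3:**
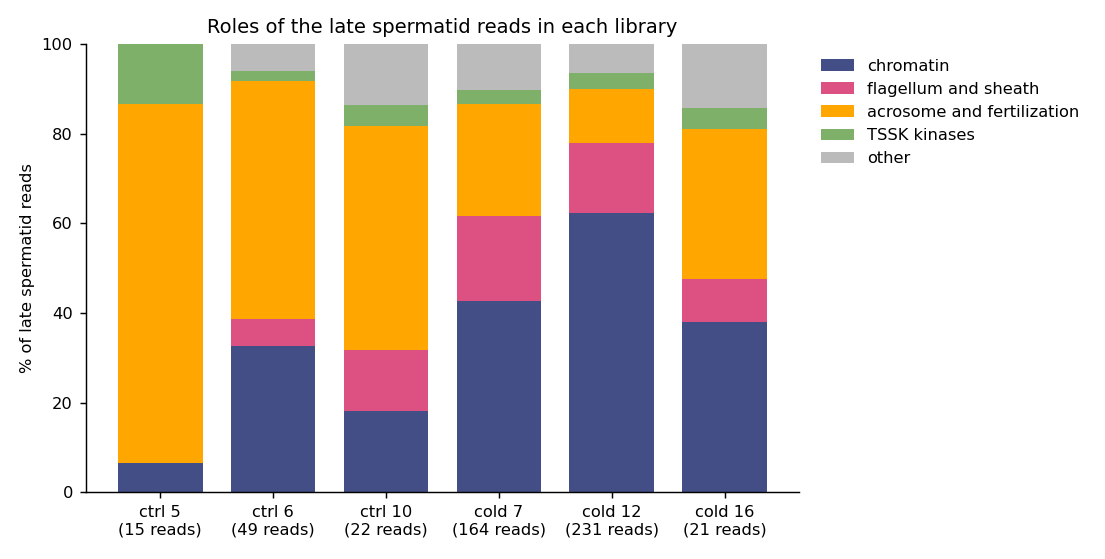
Share (percent, stacked bars to 100) of the late spermatid reads of each library that fell on chromatin, flagellum and sheath, acrosome and fertilization, kinase (TSSK) and other genes, with the number of reads under each bar. Chromatin genes were 62.3% of 231 reads in cold 12, 42.7% of 164 in cold 7 and 6.67% of 15 in ctrl 5, and bars that rest on few reads are imprecise.

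Most reads lay on coding transcripts: 478 of the 502 late spermatid reads (95.2%), all 243 chromatin reads and 421 of the 480 meiotic reads (87.7%). The chromatin messages are short, with a mean annotated length of 526 bases per read. Prm1 used a 2-exon transcript of 469 bases in 61 reads and a 3-exon transcript of 460 bases in 18. A 3-exon transcript of 603 bases took 28 of the 43 Meig1 reads. Scaled by transcript length as TPM, the highest levels in cold 12 were Prm1 at 122, Prm2 at 81.1, Tnp1 at 74.2 and Sycp3 at 45.4. In cold 7 they were Prm2 at 80.0, Prm1 at 74.7, Tnp1 at 67.3 and Meig1 at 56.2. These values of the protamine and transition protein genes rest on 16 to 51 reads each, and their order was not tested. The reads are of full-length cDNA, so scaling by length can overstate short transcripts. In CPM, which is not scaled so, Prm1 stood at 42.8 in cold 12, Prm2 at 37.7, Tnp1 at 24.3 and Sycp3 at 37.7. In all 3 controls Sycp3 (40.5 to 53.5) and Insl6 (16.6 to 40.7) led on the TPM scale.

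Odf2 and Spata18, both also transcribed outside the testis, differed in reads. Odf2, an outer dense fibre protein that is also part of centrioles, had 32, 30 and 23 reads in ctrl 5, ctrl 6 and ctrl 10 and 16, 49 and 24 in cold 7, cold 12 and cold 16, with a log2 fold change of 0.39 ± 0.27 (SE; edgeR adjusted p = 0.785). Its groups overlapped, with cold 7 at 22.1 CPM inside the control range of 20.3 to 34.1 CPM. A 22-exon transcript of 3959 bases took 48.3% of its reads. Spata18 had 1 read, in cold 12.

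Germ cell genes outside the 38, from lists chosen with earlier results of these data known, were set beside them. Of 56 other spermatid genes, 46 had reads, 40 of them highest in cold 7 or cold 12 and 28 with 0 reads in all controls. Of all genes with reads, 34.7% were highest in those libraries and 12.8% had no control read. The latter share takes in genes with many reads. Their summed level was 146 CPM in cold 7, 87.2 in cold 12, 33.2 in cold 16 and 33.6 to 53.0 in the controls. The most read of them, Pcsk4, a protease of sperm, had 19, 18 and 36 reads in ctrl 5, ctrl 6 and ctrl 10 and 10, 17 and 7 in the cold, a pattern unlike that of the protamines. Catsper2 had 6, 8 and 4 reads in the controls and 7, 9 and 5 in the cold. In Adam2 these were 3, 1 and 7 and 7, 2 and 4. Calr3 had 5, 3 and 3 in the controls and 2, 3 and 3 in the cold. For Dnajb3 they were 1, 4 and 5 and 6, 2 and 1. Tcp11, a sperm protein with 19 reads like Calr3 and Dnajb3, was chosen after its values were seen. It had 1, 1 and 0 reads in the controls and 9, 8 and 0 in the cold. Of 29 other meiotic genes 24 had reads, and their sum was 35.8 CPM in cold 7, 24.3 in cold 12, 31.9 in cold 16 and 13.2 to 26.9 in the controls. Prdm9, the meiotic recombination factor, had the most, with 12, 26 and 8 reads in the controls and 5, 9 and 6 in the cold.

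Markers of other cells of the male tract moved with the libraries in other ways. Of 8 Leydig cell markers of the testis 7 had reads, with sums of 15.3 to 27.6 CPM in the cold and 13.2 to 16.4 in the controls. Insl3, which lies over Jak3, supplied 55 of the 102 reads. It had 6, 8 and 6 reads in ctrl 5, ctrl 6 and ctrl 10 and 17, 12 and 6 in cold 7, cold 12 and cold 16. Lhcgr had 1, 9 and 3 in the controls and 0, 1 and 3 in the cold. Star had 3 in each control and 0, 3 and 1 in the cold. Cyp11a1 had 1, 2 and 3 in the controls and 2 in each cold library. The steroid enzyme gene Cyp17a1 had 1 read over all libraries. Of 10 Sertoli cell markers 7 had reads, 31.7 to 76.3 CPM in the cold and 25.6 to 33.5 in the controls, mostly from Sox9, which is not confined to Sertoli cells. Aard had 1, 7 and 4 reads in the controls and 1, 2 and 1 in the cold. Dhh, which overlaps Rhebl1 on the same strand, had 1, 3 and 4 and 0, 5 and 0. For Inha the reads were 1, 1 and 0 and 3, 2 and 2. Amh had 1 read and Fshr none.

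Of 26 epididymal duct markers 17 had reads, with a sum of 393 CPM in cold 7, 42.8 in cold 12, 46.0 in cold 16 and 5.23 to 38.8 in the controls. Crisp1 gave 222 of the 285 reads of cold 7. Cuzd1 gave 48 of the 51 reads of cold 12 and 30 of the 36 of cold 16. Its gene overlaps Fgfr2 on the same strand, so these reads are uncertain. In ctrl 10, the highest control, Spinkl gave 22 of the 44 reads and Pate4 gave 18. Whether these reads are of the duct or of another gland was not tested, so the sum of ctrl 10 may not be a duct level. Simple epithelium markers (10 of 10 with reads) summed to 127, 214 and 166 CPM in cold 7, cold 12 and cold 16 and to 19.4 to 56.5 in the controls. Motile cilium genes (18 of 18 with reads) summed to 153, 312 and 244 CPM in the cold and to 47.0 to 113 in the controls. Cold 16 thus had high epithelial and cilium levels with late spermatid reads in the control range, whereas cold 7 and cold 12 had both. The part of these cells in the spermatid reads was not tested, and in bulk tissue more cells of a type and more RNA per cell cannot be told apart.

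**Figure D4:**
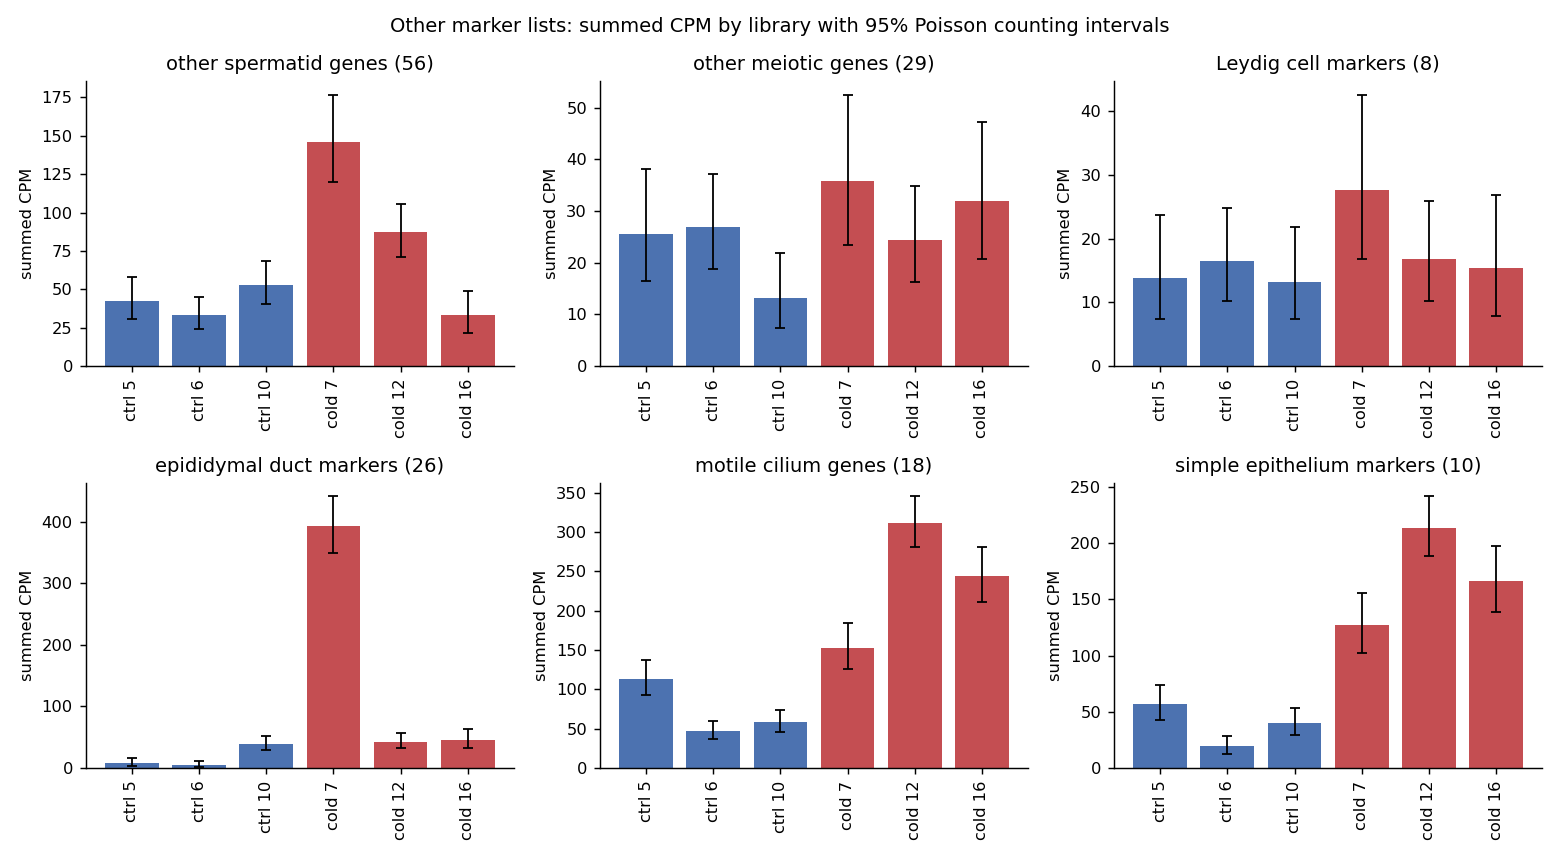
Summed level (CPM, linear axes) in each library of 6 marker lists beside the spermatid genes, as bars (blue control, red cold) with 95% Poisson counting intervals. Other spermatid genes are highest in cold 7 and cold 12, epididymal duct markers in cold 7 at 393 CPM, and cilium and simple epithelium genes are high in all 3 cold libraries.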

How the data were processed

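Poly-A RNA of epididymal fat from 3 control and 3 cold mice was sequenced as direct cDNA from 100 ng per library, per the labels' protocols. The authors deposited raw read counts per transcript, 2 files for each mouse, listing only transcripts with reads. Reads were aligned with minimap2 to GRCm38, per the submitters' processing notes. For the minimap2 version, the counting tool and whether counting used strand: not given in the sources used here. The 2 files of a mouse differed by about the sampling noise (chi-square per degree of freedom 1.02 to 1.06 over transcripts with at least 20 reads) and were summed as 1 sample.

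Of 61729 transcripts, 61538 matched GENCODE M21 with versions ignored, and those of each gene were summed. Unmatched reads were 0.139% to 0.165% of a library. CPM is relative to reads assigned to genes. All genes were tested with edgeR 4.0.16 (R 4.3.3): TMM, filterByExpr (minimum count 10), quasi-likelihood F test, adjusted p under 0.05. DESeq2 1.42.0, limma-voom (limma 3.58.1), RLE scaling, 2 other filters, single files, other scalings and each mouse left out were alternatives. The fit was tested on simulated data. Ratios of reads carry exact conditional 95% intervals.

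The 38 genes, their classes and the other lists were chosen with earlier results of these data known. All 38 are described. Those with at least 10 reads get their reads in every library, and of other lists up to 5 genes with most reads are named. Plin1, Tcp11, Cyp17a1, Amh and Fshr are named besides. Promoter windows are RefSeq's, on GRCm38.p6.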

Additional observations from a re-analysis of the deposited data

How the results depend on the processing

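The number of the 38 genes that passed was 0 with the standard filter, 2 by DESeq2 (Prm2 and Meig1), 9 with no filter and 0 by limma-voom, RLE scaling, a filter of 10 reads in 3 libraries and either file alone. Leaving out 1 mouse gave 0 to 6. With a group of 2 mice the filter asks for fewer libraries, and 7 or 8 of the genes, most of them high in cold 7 and cold 12, then entered wherever both of these mice remained. Without cold 7 or cold 12 none entered and 0 passed. The 6, without cold 16, were Prm1, Prm2, Tnp1, Smcp, Meig1 and Ldhc, which passed the filter only through the group in which they are high. Prm2 and Meig1 passed without ctrl 5 or ctrl 10, and Prm2 and Prm1 without ctrl 6. These genes too entered only through cold 7 and cold 12, so their passing is not to be read against a share of all genes. With cold 7 and cold 12 both left out, 1 passed, Sycp3 (log2 fold change 1.19, edgeR adjusted p = 0.0213). This setting was chosen after seeing the data, and it takes the lone cold mouse to vary like the controls.

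Over all genes the count was 371 with no filter, 38 with X2 files, 141 without cold 7 and cold 12 and 35 (without cold 12) to 199 (without cold 7) with 1 mouse left out. The log2 ratio of the late class stayed at 2.20 to 3.13 with 1 mouse left out and was 0.16 without cold 7 and cold 12. That of the meiotic class was 0.89, 0.81 to 1.04 with 1 mouse left out, and 1.43 without Sycp3, its most read gene and the only one of the class to overlap another gene with reads. The log2 fold change of Odf2 was -0.21 with X2 files (edgeR adjusted p = 0.957); the cause was not tested. The mean number of genes seen per library was 11 higher in the cold, and thinning or a minimum of 2 reads moved this by less than the spread between libraries. For the 17 genes with at least 10 reads that were not tested, 159 of 170 differences under the alternatives moved by less than the spread between libraries, which is wide because cold 16 lies apart from cold 7 and cold 12, and the 11 others were all without cold 7 and cold 12. With 1 mouse left out, the difference of 16 of these 17 genes (not Prm2) moved by over 1.5 times. That of Fabp9 went from 6.51 to 0.637 CPM without cold 7 and that of Prm1 from 21.3 to 11.6 CPM without cold 12. The sign changed for Spaca1 (2.14 to -0.031 CPM without cold 7) and Zpbp (-0.417 to 0.692 CPM without cold 16). No paired analysis was possible because the mouse numbers of the groups differ. Depth limits all but the most read genes: 17 of the 37 had fewer than 10 reads in all.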

Other observations

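The reads of the genes listed as epididymal duct markers came from different mice for different genes. Crisp1, a secretory protein of the epididymal duct that coats sperm, had 222 reads in cold 7, 2 in cold 16, 1 in ctrl 10 and 0 in ctrl 5, ctrl 6 and cold 12. Adam7, a membrane protein of the same duct, had 9 of its 11 reads in cold 7. Spinkl, a protease inhibitor-like protein, had 22 reads and Pate4 18 reads, all of them in ctrl 10. Whether these reads came from the duct or from another gland was not tested. Cuzd1 had 5, 2 and 1 reads in ctrl 5, ctrl 6 and ctrl 10 and 46, 48 and 30 in cold 7, cold 12 and cold 16, and its gene overlaps Fgfr2 (84 reads). Cold 12, with 231 late spermatid reads, thus had 0 reads of Crisp1.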
